A study of Homo sapiens with 8 samples.

Results

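Glycolysis splits glucose into pyruvate, gluconeogenesis runs the same route backwards through a few enzymes of its own, and membrane carriers move glucose in and lactate out. Liver cells do both, whereas many hepatocellular carcinomas lean on glycolytic isoenzymes such as hexokinase 2 and pyruvate kinase M and lose gluconeogenic ones. Phosphofructokinase, hexokinase and pyruvate kinase catalyse the steps that cannot run in reverse, and they are the usual points of control.

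The genes of glucose breakdown, glucose synthesis and glucose transport were followed here in Alexander1, an established cell line from a human liver cancer. The 32 genes were given by symbol and matched to their rows among the 58206 genes of the count table, and all 32 were found. Counts came from 8 mRNA sequencing libraries. The 4 parental libraries are of the line as obtained, whose Axin1, a scaffold of the complex that degrades beta-catenin, is described as lacking the region that binds the kinase GSK3, so that Wnt signalling is always on. The other 4 libraries are labelled as a stable derivative in which full-length Axin1 was put back from a plasmid (Addgene 24928). The labels list retroviral transfer and clonal selection with hygromycin B under every sample, the parental ones too, and do not say how many clones the derivative represents or whether replicates are separate cultures. The p-values therefore measure the spread between these libraries only, which may be technical. All cells grew in the same serum- and glutamine-supplemented medium, whose glucose content the labels do not give.

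Parental libraries held 11232951 to 15263761 counts and restored-labelled libraries 12372436 to 26400782. AXIN1 itself was not higher in the restored-labelled libraries, at 45.4 ± 5.13 CPM (counts scaled to a common library total, SD, n = 4) against 52.4 ± 3.49 in the parental ones, adjusted p 0.267 by the quasi-likelihood test of edgeR. The counts do not separate the cells' own transcript from the transferred one, and whether the transferred one maps to this gene is not stated, so the derivative is called restored-labelled throughout. All 12 hepatocyte markers had a mean of at least 1 CPM, and their summed level was 24719 to 29013 CPM in the parental and 18535 to 22262 CPM in restored-labelled libraries. Of 5 epithelial markers, EPCAM alone was under 1 CPM. The 4 cholangiocyte markers summed to 24.5 to 53.0 CPM in the parental and 39.2 to 76.8 CPM in restored-labelled libraries, with overlap. The 5 leukocyte markers summed to at most 1.25 CPM, with CD3E at 0 counts, and the 6 fibroblast markers to at most 4.59 CPM. The 4 endothelial markers summed to 4.58 to 6.77 CPM in the parental and 34.1 to 58.5 CPM in restored-labelled libraries, with VWF, CDH5 and KDR under 1 CPM, and the part of these shifts in the results below was not tested. In such bulk libraries, fewer cells of a kind and less RNA per cell cannot be told apart.

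Of the 32 genes, 31 had enough counts to be tested. Of these, 9 passed the threshold of 0.05 on p-values adjusted over all genes in that test, which is 29.0% of the tested members beside 19.2% of all 14289 genes tested. Among them 3 were higher in the restored-labelled libraries, namely HK2, PFKFB2 and PDHA1, beside a background of 10.4% called higher. The 6 that were lower were PFKP, ALDOA, TPI1, ENO1, ENO2 and SLC16A3, which is 19.4% of the tested members beside 8.77% of all genes. The median log2 fold change of the 31 was -0.06, beside 0.00 for all genes tested. In 10 members the groups did not overlap, which is 32.3% beside 23.9% of all genes. An unadjusted p under 0.05 in edgeR's test was reached by 17 of the 31, beside 4786 of the 14289 genes. DESeq2's Wald test, an alternative, called 3 members higher and 9 lower, beside 1775 and 1729 genes. Such counts below are to be read against these backgrounds.

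These counts changed when 1 library was left out, which also leaves 1 group smaller. The part of the smaller group in these changes was not tested. With 1 library left out, between 0 and 4 members were called higher and between 3 and 8 lower, the fewest without restored-labelled replicate 4 (0 higher and 3 lower in edgeR's test, with 6 and 7 at an unadjusted p under 0.05). Without parental replicate 1 there were 4 higher and 8 lower, without restored-labelled replicate 1 there were 3 and 8, without parental replicate 4 there were 1 and 5, and without restored-labelled replicate 2 there were 1 and 4. Leaving out parental replicate 2, parental replicate 3 or restored-labelled replicate 3 left 1 higher and 3 lower each time. With replicate 1 of both groups left out, an alternative chosen after seeing the data, 6 were higher and 11 lower. The calls over all genes moved too, from 2738 with all libraries to 4623 without replicate 1 of both groups. They numbered 1394 without restored-labelled replicate 4 and 3523 without parental replicate 1, so the changes were not particular to the members. PFKP, TPI1 and ENO2 passed in all 18 alternatives run at this threshold.

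**Figure D1:**
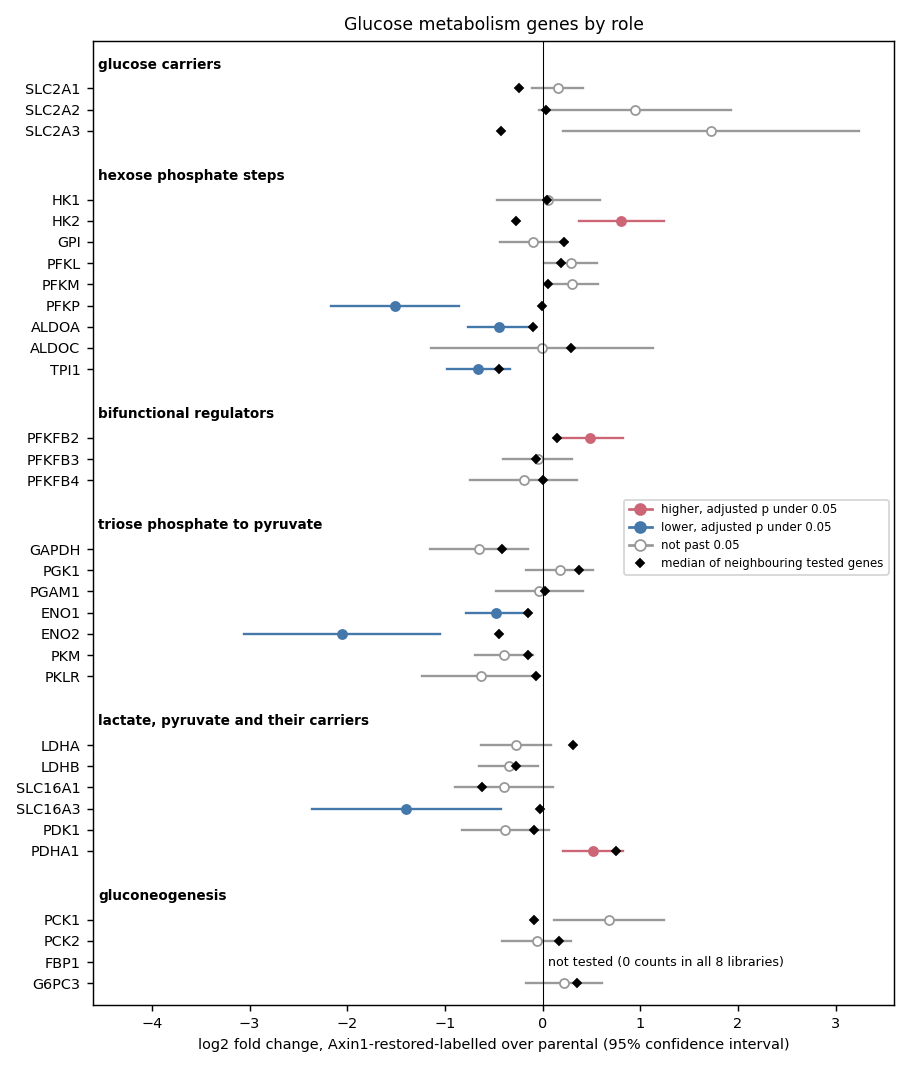
Log2 fold change of each gene, restored-labelled over parental, with its 95% confidence interval in edgeR's test, grouped by role. Filled points passed an adjusted p of 0.05, and diamonds give the median of up to 20 tested genes on each side on the same chromosome. PFKP, ENO2 and SLC16A3 lie farthest to the left of the called genes, between -2.06 and -1.39, and HK2 farthest to the right at 0.80.

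Together the 32 genes took 2.38%, 2.35%, 2.08% and 2.05% of all counts in parental replicates 1 to 4 and 1.85%, 1.89%, 1.71% and 1.59% in restored-labelled replicates 1 to 4. Every restored-labelled share was thus under every parental one, but this separation depended in part on a single gene. GAPDH, the dehydrogenase of glyceraldehyde phosphate, alone took 0.854% ± 0.187 of parental and 0.578% ± 0.108 of restored-labelled counts (SD, n = 4). It took 1.10% in parental replicate 1 and 0.564% in restored-labelled replicate 1. Without GAPDH, the shares of these libraries were level, and the other restored-labelled shares stayed under the parental ones. Per kilobase of exon, the parental order was GAPDH at 4003 CPM per kb, ENO1 at 1119, PKM at 963, ALDOA at 883, LDHB at 539, TPI1 at 349 and LDHA at 326. The restored-labelled order began in the same way, with GAPDH at 2544, ENO1 at 804, PKM at 729, ALDOA at 647 and LDHB at 423 CPM per kb, and then LDHA at 270 stood above TPI1 at 221. The other members lay below these in both groups.

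Among the 3 facilitative glucose carriers, no gene passed edgeR's test, with 1 at an unadjusted p under 0.05 and 0 called by DESeq2's Wald test. SLC2A1, the carrier GLUT1 of most dividing cells, was level across the libraries at 27.6 to 30.2 CPM in the parental and 29.6 to 34.1 CPM in the restored-labelled group (log2 fold change 0.15, 95% interval -0.10 to 0.41). SLC2A2, the low-affinity hepatocyte carrier GLUT2, measured 8.28, 28.6, 28.2 and 48.3 CPM in the parental and 25.6, 48.2, 66.1 and 78.5 CPM in the restored-labelled libraries. The groups overlapped, and its log2 fold change of 0.94 (SE 0.45) had an adjusted p of 0.165 in edgeR's test.

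SLC2A3, the high-affinity carrier GLUT3, measured 15.5, 10.9, 4.10 and 2.79 CPM in the parental and 69.8, 19.6, 9.95 and 9.72 CPM in the restored-labelled libraries. Restored-labelled replicate 1 stood far above all other libraries, and the groups overlapped. Its log2 fold change was 1.72 (SE 0.69, adjusted p 0.106 in edgeR's test). It was 0.65 (adjusted p 0.403) without restored-labelled replicate 1, and 2.19 (adjusted p 0.0431) without parental replicate 1. Of the summed length-scaled level of the 3 carriers, SLC2A1 held 51.4%, 39.3%, 43.0% and 30.7% in the parental libraries and 24.9%, 27.0%, 26.3% and 22.6% in the restored-labelled ones. The SLC2A1 shares did not overlap between groups, but the share tested for this family was that of SLC2A2, which overlapped (exact permutation p 0.543 over 70 labelings).

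Of the 9 genes that carry glucose to the triose phosphates, 1 rose (11.1%) and 3 fell (33.3%), beside 10.4% and 8.77% of all genes. HK2, the inducible hexokinase of tumours and muscle (ENSG00000159399, chromosome 2, 74833981 to 74893359 on GRCh38), measured 18.8, 23.1, 23.7 and 13.5 CPM in the parental and 29.2, 36.4, 30.5 and 41.8 CPM in the restored-labelled libraries. Every restored-labelled library lay above every parental one. The log2 fold change was 0.80 (SE 0.20, adjusted p 0.0179 in edgeR's test), and without restored-labelled replicate 4 it was 0.70 with an adjusted p of 0.0621. The 40 tested genes nearest to HK2 on chromosome 2 had a median log2 fold change of -0.27, so HK2 stood 1.07 above them. HK1, the housekeeping hexokinase, measured 5.55 to 11.7 CPM and 7.39 to 10.5 CPM in the groups (log2 fold change 0.06, 95% interval -0.47 to 0.58). HK2 held 64.7% ± 11.2 of the summed length-scaled level of HK1 and HK2 in parental libraries (SD, n = 4). In restored-labelled libraries it held 75.5% ± 5.14, with overlap and an exact two-sided permutation p of 0.2. HKDC1, another hexokinase gene named after its value was seen, is outside this share. Per kilobase of exon, HKDC1 stood at 66.9 CPM in parental and 56.7 CPM in restored-labelled libraries, above HK2 at 3.3 and 5.8.

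Phosphofructokinase adds the second phosphate to the hexose, and its tetramers are built from a liver (PFKL), a muscle (PFKM) and a platelet (PFKP) subunit. PFKP (ENSG00000067057, chromosome 10, 3066333 to 3137712) fell from 148 ± 17.7 to 51.8 ± 28.9 CPM (SD, n = 4). Its parental libraries measured 169, 156, 136 and 131 CPM, and its restored-labelled ones 94.8, 39.0, 32.8 and 40.6 CPM. Restored-labelled replicate 1 lay between the parental libraries and the other restored-labelled ones, and the groups did not overlap. The log2 fold change was -1.51 (SE 0.30, adjusted p 0.0062 in edgeR's test), and -1.98 without restored-labelled replicate 1. The 28 tested neighbours available on chromosome 10 had a median of -0.01. At an adjusted p of 0.01, PFKP was the member that remained.

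PFKL and PFKM moved less. PFKL measured 179 to 228 CPM in the parental and 219 to 275 CPM in restored-labelled libraries, with a log2 fold change of 0.29 (SE 0.12) and an adjusted p of 0.132 in edgeR's test. PFKM measured 69.5 to 86.9 and 82.6 to 104 CPM, with a log2 fold change of 0.30 (SE 0.12) and an adjusted p of 0.114 in edgeR's test, and the SENP1 gene on the opposite strand shares 413 exon bases with it. As a share of the family's summed length-scaled level, PFKP took 37.3%, 30.7%, 29.1% and 29.0% in the parental libraries and 19.3%, 9.18%, 7.03% and 10.2% in the restored-labelled ones. PFKL took the largest share in all 8, at 55.7% ± 3.72 in the parental and 72.0% ± 4.36 in the restored-labelled group (SD, n = 4) without overlap. The exact two-sided permutation p for PFKL was 0.0286, the smallest that 4 against 4 libraries can give, and 0.143 after Benjamini-Hochberg adjustment over the 10 isoenzyme families compared.

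**Figure D2:**
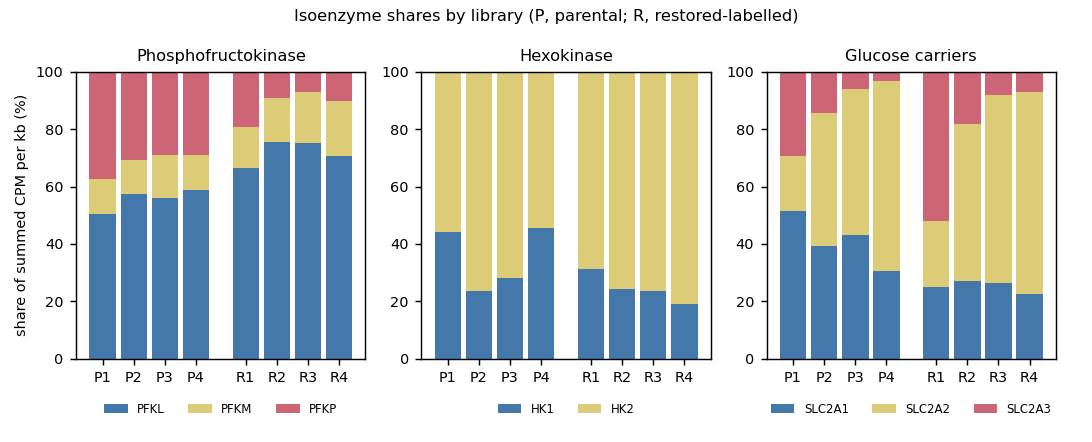
Share of each gene in the summed CPM per kilobase of the genes drawn in its panel, in percent. Parental libraries are P1 to P4 and restored-labelled ones R1 to R4. HKDC1, which stood above HK2 per kilobase, is not part of the hexokinase panel. The PFKP segment is smaller in every restored-labelled library (7.03% to 19.3%) than in any parental one (29.0% to 37.3%), and SLC2A3 fills the largest segment of the carriers in R1 only.

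ALDOA, the main aldolase, which cleaves fructose bisphosphate, fell by 0.45 on the log2 scale (SE 0.14, adjusted p 0.0490 in edgeR's test). It measured 2201, 2372, 1897 and 2027 CPM in the parental and 1638, 1704, 1576 and 1307 CPM in restored-labelled libraries, with no overlap. This call sat at the threshold: it was lost without any library but parental replicate 1, with adjusted p-values of 0.057 to 0.151 over those 7 fits. ALDOC, the minor aldolase, had 25 to 142 counts and a log2 fold change of -0.01 (95% interval -1.14 to 1.13), which was 0.69 without parental replicate 1 and -0.39 without restored-labelled replicate 2. GPI, the isomerase of glucose 6-phosphate, measured 621 to 840 and 574 to 824 CPM (log2 fold change -0.10, 95% interval -0.44 to 0.25).

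TPI1, which interconverts the triose phosphates (ENSG00000111669, chromosome 12, 6867119 to 6870948), fell by 0.66 on the log2 scale (SE 0.15, adjusted p 0.0116 in edgeR's test). Its parental libraries measured 706, 822, 763 and 738 CPM and its restored-labelled ones 588, 441, 495 and 395 CPM. The highest restored-labelled library stayed under the lowest parental one. TPI1 lies 42.8 kb from ENO2 and 329 kb from GAPDH, and the 40 tested genes around TPI1 had a median log2 fold change of -0.44, with 12 of them called lower and 0 higher. TPI1 stood 0.22 below these neighbours (a difference of -0.22), and the part of a shift shared along the chromosome in its fall was not tested.

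The promoter stretches of PFKP, HK2 and TPI1 are shown because these genes gave the strongest fall and the strongest rise among the hexose steps and a fall that passed in every alternative run at 0.05. The sequences are from RefSeq on GRCh38.p14, on the plus strand, and hold the bases before an annotated start that lie in no exon of the gene. Where a gene had several windows, the one with the fewest exon bases is printed. Capitals mark ACGTG or GCGTG read on either strand, the cores of hypoxia response elements, of which ACGTG is also part of the E-box CACGTG.
PFKP, chr10:3067720-3067969: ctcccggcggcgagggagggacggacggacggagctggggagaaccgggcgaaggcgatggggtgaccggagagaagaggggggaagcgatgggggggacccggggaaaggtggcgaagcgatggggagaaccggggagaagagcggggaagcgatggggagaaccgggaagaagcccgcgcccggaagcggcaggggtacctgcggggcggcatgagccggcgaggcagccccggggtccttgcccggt
HK2, chr2:74834920-74835169: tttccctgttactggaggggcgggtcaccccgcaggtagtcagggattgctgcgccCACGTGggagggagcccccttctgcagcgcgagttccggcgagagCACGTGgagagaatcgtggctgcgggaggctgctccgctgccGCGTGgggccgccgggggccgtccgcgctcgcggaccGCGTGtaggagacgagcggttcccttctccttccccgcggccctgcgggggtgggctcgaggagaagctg
TPI1, chr12:6867855-6868099: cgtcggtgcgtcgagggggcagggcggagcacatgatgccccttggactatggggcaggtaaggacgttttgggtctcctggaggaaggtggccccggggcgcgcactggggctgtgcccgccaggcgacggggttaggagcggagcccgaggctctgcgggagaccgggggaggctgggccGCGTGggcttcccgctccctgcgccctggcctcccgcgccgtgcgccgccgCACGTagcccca
The HK2 stretch holds 2 CACGTG and 2 further GCGTG, the TPI1 stretch 1 of each core, and the PFKP stretch none. Of the 4 PFKP windows, however, 2 others hold a core, and so do both HK2 windows and 1 of the 2 TPI1 windows. Of the 32 genes, 28 had promoter windows in the RefSeq table, all but PFKFB2, SLC2A3, PCK1 and SLC16A1, with 57 windows of 300 bases (250 before the start and 50 after). ACGTG or GCGTG was present in 37 of the 57 windows (64.9%) and in 48.4% of all 35116 windows. CACGTG was present in 10 of 57 (17.5%) beside 7.26% of all windows. The TCF/LEF cores CTTTGAT and CTTTGAA, both strands read, were in 0 of 57 beside 6.86% of all windows. These are matches of letters and not sites of binding.

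The 3 bifunctional enzymes make and remove fructose 2,6-bisphosphate, the strongest activator of phosphofructokinase. PFKFB2, the form known from heart, rose with 17.7, 17.1, 22.4 and 21.8 CPM in the parental and 25.8, 24.6, 27.5 and 32.7 CPM in restored-labelled libraries (log2 fold change 0.49, SE 0.15, adjusted p 0.0456 in edgeR's test). The groups did not overlap, but the call was lost without any library but restored-labelled replicate 1, at adjusted p-values of 0.0538 to 0.142. PFKFB3, the most abundant of the 3 per length, measured 123 to 208 and 134 to 173 CPM (log2 fold change -0.05, 95% interval -0.41 to 0.30). PFKFB4 had a log2 fold change of -0.20 (95% interval -0.75 to 0.36).

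From triose phosphate to pyruvate, 2 of 7 genes fell (28.6%, beside 8.77% of all genes) and none rose in edgeR's test. At an unadjusted p under 0.05, 5 were lower and 0 higher, beside 4786 of all 14289 genes in either direction. DESeq2's Wald test called 4 of the 7 lower, beside 1729 of all genes. The median log2 fold change of these 7 genes was -0.48. GAPDH measured 12294, 9298, 7148 and 6871 CPM in the parental and 5337, 7474, 5321 and 4504 CPM in restored-labelled libraries. Restored-labelled replicate 2 reached into the parental range. The log2 fold change was -0.65 (SE 0.23, adjusted p 0.0674 in edgeR's test), 0.0388 without restored-labelled replicate 2 and up to 0.188 with another library left out. The 40 neighbours of GAPDH had a median of -0.42, with 14 called lower. GAPDH shares 422 exon bases with the antisense gene AC006064.4, and its many pseudogenes held at most 0.206% of its counts.

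ENO1, the ubiquitous enolase, fell by 0.48 on the log2 scale (SE 0.14, adjusted p 0.0339 in edgeR's test). It measured 3146, 2612, 2589 and 2416 CPM in the parental and 1952, 2008, 1994 and 1775 CPM in restored-labelled libraries, with no overlap. Leaving out parental replicate 2 or 3 or restored-labelled replicate 2, 3 or 4 ended the call, at adjusted p-values of 0.0569 to 0.11. ENO2, the enolase of neurons, had the largest fall of all members, with a log2 fold change of -2.06 (SE 0.46, adjusted p 0.0116 in edgeR's test). It was a minor enolase at 12.1, 10.5, 6.86 and 3.79 CPM in the parental and 3.01, 2.97, 1.04 and 1.05 CPM in restored-labelled libraries. The groups did not overlap, and ENO2 was 1.61 below its chromosome 12 neighbours, whose median was -0.44. ENO1 made up 99.8% of the summed length-scaled level of ENO1 and ENO2 in the parental and 99.9% in the restored-labelled group. ENO3, an enolase of the related lists below, is outside this share. Per kilobase of exon, ENO3 stood at 50.6 CPM in parental and 27.9 CPM in restored-labelled libraries, above ENO2 at 2.63 and 0.64.

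PKM, the pyruvate kinase of dividing cells, measured 3161, 3427, 3021 and 3145 CPM in the parental and 2704, 2468, 2334 and 2156 CPM in restored-labelled libraries. The groups did not overlap, yet the log2 fold change of -0.40 (SE 0.13) missed the threshold (adjusted p 0.0600 in edgeR's test). It passed without parental replicate 1 (0.0400) or restored-labelled replicate 1 (0.0451). PKLR, the pyruvate kinase of liver and red cells, measured 23.8 to 65.0 and 23.8 to 38.7 CPM, with a log2 fold change of -0.63 (SE 0.27, adjusted p 0.132 in edgeR's test) that became -0.85 (0.00838) without parental replicate 1. HCN3, on the opposite strand, shares 556 exon bases with PKLR at a mean of 13.2 CPM. PGK1 and PGAM1, the kinase and mutase between GAPDH and enolase, had log2 fold changes of 0.18 (95% interval -0.17 to 0.52) and -0.03 (-0.48 to 0.41).

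**Figure D3:**
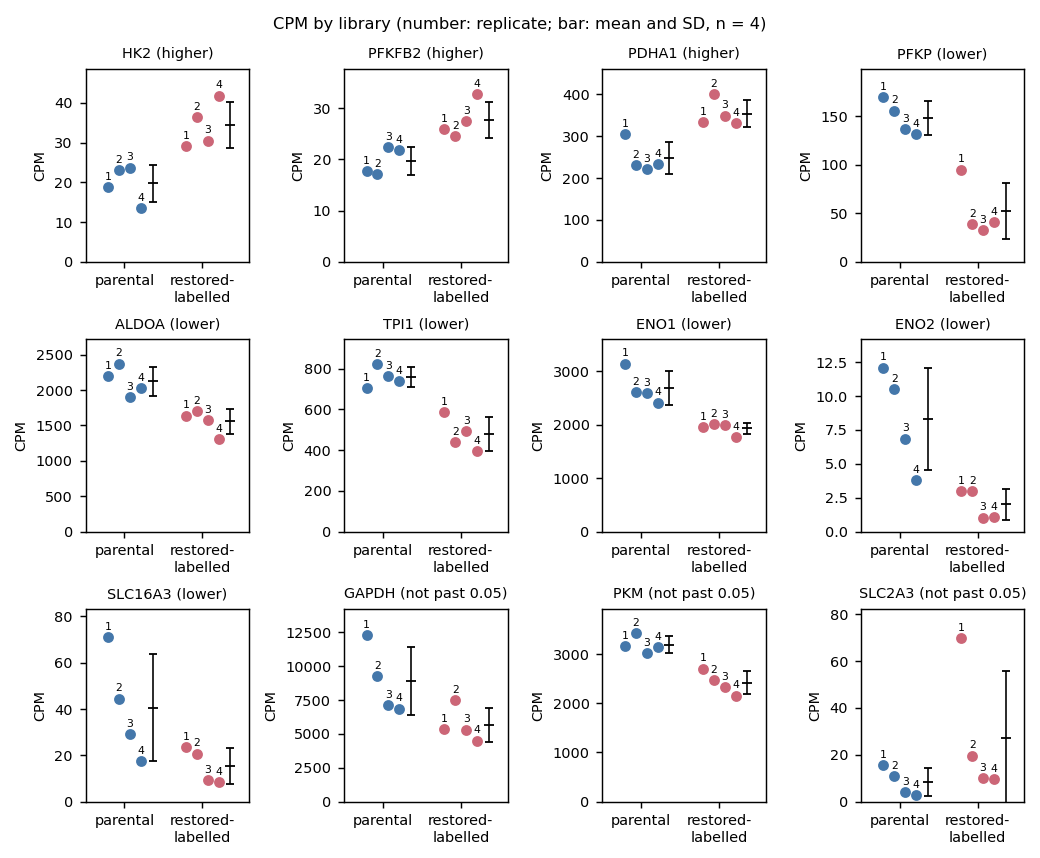
CPM of 12 of the genes in each library, numbered by replicate, with the mean and SD of each group (n = 4). The bar of SLC2A3 in the restored-labelled group is cut at 0. Restored-labelled replicate 1 stands apart from the other 3 in PFKP (94.8 CPM) and SLC2A3 (69.8 CPM).

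Of the 6 genes that handle pyruvate and lactate, 1 rose and 1 fell (16.7% each, beside 10.4% and 8.77% of all genes). PDHA1, the catalytic subunit by which pyruvate dehydrogenase sends pyruvate to acetyl-CoA, measured 305, 231, 221 and 233 CPM in the parental and 334, 401, 349 and 330 CPM in restored-labelled libraries. Parental replicate 1 lay well above the other parental libraries, and the groups did not overlap. The log2 fold change was 0.51 (SE 0.14, adjusted p 0.0263 in edgeR's test), and 0.0539 to 0.0883 in the 6 fits without parental replicate 2, 3 or 4 or restored-labelled replicate 2, 3 or 4. On the X chromosome, 21 of its 40 tested neighbours were called higher and their median was 0.75, so PDHA1 lay below its neighbours by a difference of -0.23. The part of that shared shift in its rise was not tested. MAP3K15 on the opposite strand shares 333 exon bases with PDHA1. PDK1, a kinase that switches pyruvate dehydrogenase off, had a log2 fold change of -0.38 (SE 0.20, adjusted p 0.209 in edgeR's test), which became -0.60 (0.0257) without restored-labelled replicate 1.

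LDHA and LDHB, the subunits of lactate dehydrogenase, had log2 fold changes of -0.27 (SE 0.16) and -0.35 (SE 0.14), with adjusted p-values of 0.262 and 0.100 in edgeR's test. LDHB did not overlap between groups, at 800 to 946 CPM in the parental and 574 to 792 CPM in restored-labelled libraries, and passed without restored-labelled replicate 1 (0.0431). The 40 neighbours of LDHB on chromosome 12 had a median of -0.27, with 11 called lower and 0 higher. SLC16A3, the carrier MCT4 that exports lactate from glycolytic cells, measured 71.0, 44.5, 29.1 and 17.7 CPM in the parental and 23.5, 20.8, 9.17 and 8.43 CPM in restored-labelled libraries. The spread inside each group was wide and parental replicate 4 lay inside the restored-labelled range. Its log2 fold change was -1.39 (SE 0.44, adjusted p 0.0472 in edgeR's test). The call was kept only without parental replicate 4 or restored-labelled replicate 1, and the other 6 fits gave 0.0556 to 0.133. CSNK1D, on the opposite strand, shares 336 exon bases with SLC16A3 at a mean of 183 CPM, and without knowledge of strand in the counting, reads there cannot be told apart. SLC16A1, the carrier MCT1, measured 27.5 to 63.5 and 28.2 to 42.8 CPM with a log2 fold change of -0.39 (adjusted p 0.254 in edgeR's test), and passed without parental replicate 1 (-0.57, 0.0347). The 40 neighbours of SLC16A1 on chromosome 1 had a median of -0.63, with 14 called lower and 0 higher, so SLC16A1 stood 0.23 above them. The part of that shared shift in its change was not tested.

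Of the 4 genes of gluconeogenesis, 3 were tested and none passed edgeR's test, with 1 higher and 0 lower at an unadjusted p under 0.05 and 0 by DESeq2's Wald test. FBP1, the fructose bisphosphatase often silent in liver cancer, had 0 counts in all 8 libraries. A count of 0 allowed up to 0.267 CPM in the shallowest library and 0.108 CPM in the deepest, for counting error only. PCK1, the cytosolic carboxykinase that feeds gluconeogenesis, measured 56.0, 42.1, 36.8 and 27.5 CPM in the parental and 94.6, 69.1, 50.1 and 46.0 CPM in restored-labelled libraries. These ranges overlapped, and the log2 fold change of 0.68 (SE 0.26) had an adjusted p of 0.0899 in edgeR's test, or 0.0235 without parental replicate 1. PCK2, the mitochondrial form, held 92.2% ± 1.39 of the carboxykinase level per length in parental and 87.1% ± 5.83 in restored-labelled libraries (SD, n = 4; exact two-sided permutation p 0.114). G6PC3, the ubiquitous glucose 6-phosphatase, had a log2 fold change of 0.22 (95% interval -0.17 to 0.61).

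Genes around these pathways were read from 7 lists of 127 genes, of which 104 were tested, 12 were called higher and 15 lower in edgeR's test. These are 11.5% higher, near the 10.4% of all genes, and 14.4% lower, beside 8.77% of all genes. The shares of single lists, given below, rest on 8 to 25 genes each and are to be read against the same background. Without 1 library the calls ranged from 5 higher and 6 lower without restored-labelled replicate 4 to 13 and 16 without parental replicate 1, with 7 and 6 without parental replicate 2, 7 and 9 without parental replicate 3, 7 and 7 without restored-labelled replicate 3, and 6 higher without parental replicate 4 or restored-labelled replicate 2. Of 12 other tested enzymes of glycolysis and gluconeogenesis, 1 rose (8.33%) and 4 fell (33.3%), with a median log2 fold change of -0.19. ENO3, the muscle enolase, fell by 0.86 (SE 0.17, adjusted p 0.00564 in edgeR's test), and PC, the carboxylase that opens gluconeogenesis, by 0.47 (0.0208). BPGM, which makes 2,3-bisphosphoglycerate, rose by 0.64 (0.0237). PC lost its call without parental replicate 2 or restored-labelled replicate 3 or 4 (up to 0.0723), and BPGM without parental replicate 4 or restored-labelled replicate 2, 3 or 4 (up to 0.0718). G6PC1, the liver glucose 6-phosphatase, and GCKR, the regulator of glucokinase, were picked after their values were seen. GCKR fell by 1.09 (SE 0.29, adjusted p 0.0238 in edgeR's test), though not without parental replicate 2 or restored-labelled replicate 2, 3 or 4 (up to 0.0755). The 40 neighbours of GCKR had a median of -0.36, with 13 called lower and 1 higher. Those of PC had a median of -0.28, with 9 called lower and 1 higher. G6PC1 measured 182, 142, 161 and 236 CPM in the parental and 140, 29.5, 28.8 and 24.7 CPM in restored-labelled libraries (log2 fold change -1.69, SE 0.51, adjusted p 0.0392 in edgeR's test), with restored-labelled replicate 1 just under the parental range. Without that library the change was -2.70, and in 6 of the 8 fits with 1 library left out, all but those without replicate 1 of either group, the adjusted p was 0.06 to 0.108.

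Of 10 other carriers and carrier regulators tested, 3 rose (30.0%) and 1 fell (10.0%), with a median of 0.28. TXNIP and ARRDC4 are arrestin-like proteins that draw glucose carriers off the membrane and whose genes respond to glucose. TXNIP rose with 3.83, 2.23, 3.30 and 2.79 CPM in the parental and 15.0, 8.92, 11.4 and 10.2 CPM in restored-labelled libraries (log2 fold change 1.92, SE 0.24, adjusted p 0.000557 in edgeR's test). ARRDC4 had 1, 2, 0 and 2 counts in the parental libraries and 1.61, 2.89, 3.65 and 4.41 CPM in the restored-labelled ones (adjusted p 0.000286 in edgeR's test), and no fold is given against so few counts. Both genes separated the groups completely and passed in all alternatives. SLC2A6, a lysosomal hexose carrier, fell by 1.00 (SE 0.15, adjusted p 0.00159 in edgeR's test). EMB, a partner of lactate carriers named after its value was seen, rose at a low level (means of 0.46 and 1.35 CPM, adjusted p 0.0423 in edgeR's test) and lost its call without any library but parental replicate 1 (up to 0.129).

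In the rest of the pyruvate dehydrogenase system, 3 of 10 tested genes rose (30.0%), and none fell in edgeR's test, with 5 higher and 0 lower at an unadjusted p under 0.05 and 3 and 0 by DESeq2's Wald test. All 3 are kinases that switch the complex off. PDK1, such a kinase among the members above, did not rise, with a log2 fold change of -0.38 (adjusted p 0.209 in edgeR's test). PDK2 measured 15.7, 15.2, 15.3 and 19.1 CPM in the parental and 35.4, 39.0, 58.8 and 43.5 CPM in restored-labelled libraries (log2 fold change 1.44, SE 0.18, adjusted p 0.000506 in edgeR's test), beside a median of 0.43 among its neighbours on the chromosome, 16 of 40 of which were called higher. PDK4 rose by 1.46 (SE 0.34, adjusted p 0.0147) and PDK3 by 0.71 (SE 0.17, adjusted p 0.0178) in edgeR's test. Both lost the call without parental replicate 2 (0.0507 and 0.0623), PDK4 also without restored-labelled replicate 4 (0.0547) and PDK3 without restored-labelled replicate 3 (0.0578). PDK3 lies on the X chromosome, where 13 of its 40 neighbours were called higher.

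Of 8 tested pentose phosphate genes, 3 fell (37.5%), and none rose in edgeR's test, with 0 higher at an unadjusted p under 0.05 and 0 by DESeq2's Wald test. TALDO1, the transaldolase, fell by 0.52 and RPIA, the ribose phosphate isomerase, by 0.87 on the log2 scale, with adjusted p-values of 0.0246 and 0.0270 in edgeR's test. Both calls were lost in some of the fits with 1 library left out, in which 1 group is smaller. TALDO1 lost its call in 3 fits with 1 library left out (parental replicate 2 or 3 or restored-labelled replicate 4, up to 0.0719), and RPIA in all but those without replicate 1 of either group (up to 0.0878).

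Of 16 tested glycogen genes, 1 rose (6.25%) and 3 fell (18.8%). The glycogenins, which prime glycogen chains, moved in opposite directions: GYG2 rose by 0.69 (SE 0.15, adjusted p 0.0092) and GYG1 fell by 0.74 (SE 0.16, adjusted p 0.0104) in edgeR's test, both in all alternatives. GYG2 lies on the X chromosome, where 13 of its 34 available neighbours were called higher. GBE1, the branching enzyme, fell by 0.73 (adjusted p 0.0269 in edgeR's test, up to 0.0836 without parental replicate 2 or 3 or restored-labelled replicate 2, 3 or 4). GYS2, the liver glycogen synthase, named after its value was seen, fell by 1.38 (adjusted p 0.0383 in edgeR's test, up to 0.112 without any library but parental replicate 1).

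Hypoxia-inducible factors, their regulators and their targets outside glycolysis gave 3 higher (12%) and 1 lower (4%) of 25 tested, with a median of 0.07. These shares were near or under the background of 10.4% and 8.77%. P4HA1, a collagen prolyl hydroxylase, fell by 0.78 (SE 0.18, adjusted p 0.0137), whereas P4HA2, of the same enzyme family, rose by 0.82 (0.0362) and BNIP3L, a mitophagy receptor, by 0.98 (0.0331) in edgeR's test. P4HA2 lay among genes with a median of 0.60, of which 19 of 40 were called higher, and it lost its call without parental replicate 2, 3 or 4 or restored-labelled replicate 2, 3 or 4 (up to 0.106). BNIP3L lost its call without parental replicate 3 or 4 or restored-labelled replicate 2 or 4 (up to 0.0883). CA12, a carbonic anhydrase named after its value was seen, rose by 1.49 (adjusted p 0.0444 in edgeR's test), though only parental replicate 1 or restored-labelled replicate 3 could be left out without losing the call (up to 0.121).

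Of 23 tested regulators of glucose metabolism, 1 rose (4.35%) and 3 fell (13.0%), with a median of -0.13. FOXO1, which drives gluconeogenic genes when insulin is low, measured 41.5, 29.8, 30.6 and 41.4 CPM in the parental and 22.5, 8.92, 8.87 and 10.2 CPM in restored-labelled libraries (log2 fold change -1.49, SE 0.30, adjusted p 0.00675 in edgeR's test). No library of one group entered the range of the other, and restored-labelled replicate 1 was again the nearest to the parental group. The 40 neighbours of FOXO1 had a median of -0.55, with 16 called lower. PRKAA2, a catalytic subunit of AMP-activated kinase, fell by 0.96 (SE 0.23, adjusted p 0.0152), and FOXO3 rose by 0.50 (SE 0.15, adjusted p 0.0403) in edgeR's test, though not without parental replicate 3 or 4 or restored-labelled replicate 2, 3 or 4 (up to 0.103). MLXIP, a glucose-sensing transcription factor named after its value was seen, fell by 0.43 (adjusted p 0.0495 in edgeR's test, up to 0.147 without any library but restored-labelled replicate 1).

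**Figure D4:**
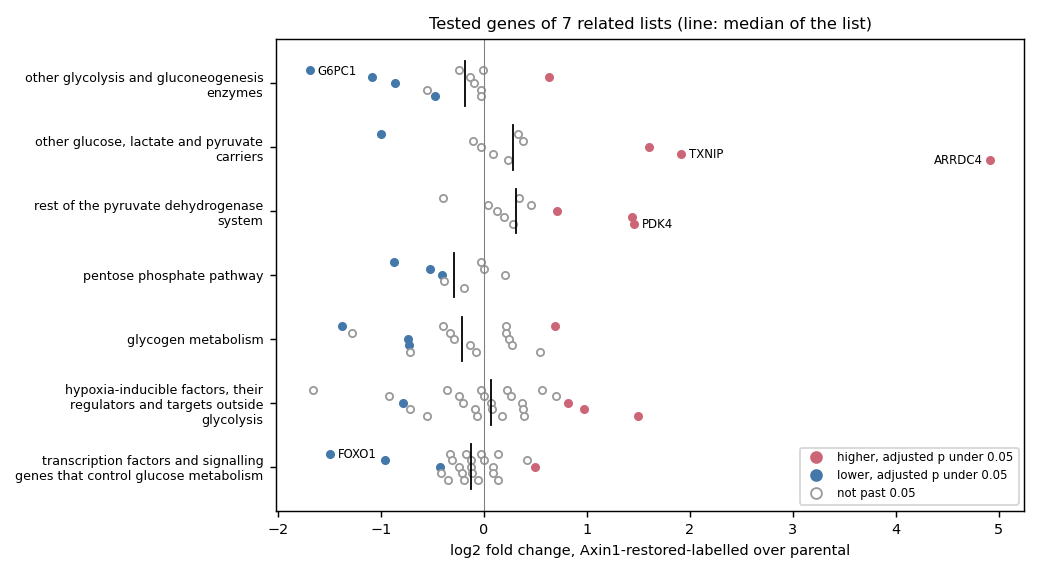
Log2 fold change, restored-labelled over parental, of every tested gene in 7 lists around glucose metabolism, with a line at each list's median. Filled points passed an adjusted p of 0.05 in edgeR's test. ARRDC4 is drawn at its fitted value, which rests on at most 2 counts in a parental library, and TXNIP lies at 1.92.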

How the data were processed

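Total RNA of Alexander1 cells was made into libraries with an mRNA kit, per the labels' protocols. The authors deposited raw counts per gene for 8 samples, without normalization. bcl2fastq, fastp 0.23.1, STAR 2.7.4 and the build GRCh38 are named in the submitters' processing notes, and the counting program, annotation release and use of strand are not given in the sources used here. Of 58206 gene identifiers, 57943 were found in GENCODE 29 and 57495 had a symbol.

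The counts went into edgeR 4.0.16 under R 4.3.3: filterByExpr (minimum count 10, minimum total 15), TMM factors (0.897 to 1.06), glmQLFit and glmQLFTest without covariates, and two-sided p-values adjusted by Benjamini-Hochberg over 14289 genes at 0.05. Of these genes, 2738 were called. The standard error of a log2 fold change is its size divided by the square root of F. CPM uses the scaled totals. Isoenzyme shares use CPM per kilobase of exon, summed over the members of a family only, and exact permutation over all 70 labelings. The genes named are the 32 members, AXIN1 and the 3 genes of smallest p in each list, and exceptions are stated. Of these, 1 gene is not reported here. Members, lists and tests were chosen with earlier results of these data known. Alternatives were other scalings, filters, tools (DESeq2 1.42.0, limma 3.58.1), the replicate number as a block, libraries thinned to 11232951 counts, a stricter threshold and each library left out. The fit was checked on simulated counts.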

Additional observations from a re-analysis of the deposited data

Results flagged for a closer look

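Of 62 groups of 4 libraries examined (31 tested members in 2 groups), 3 held 1 library far from the other 3, by a gap past Dixon's 95% critical value for the group's range. Chance flags about 1 in 20 such groups. PFKP measured 94.8 CPM in restored-labelled replicate 1 and 32.8 to 40.6 CPM in the other 3. SLC2A3 measured 69.8 CPM in the same library and 9.72 to 19.6 CPM in the others. PDHA1 measured 305 CPM in parental replicate 1 and 221 to 233 CPM in the other parental libraries.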

How the results depend on the processing

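With all libraries thinned to the smallest total, 11232951 counts, 2589 genes were called, beside 2738 at full depth. The number was 964 at an adjusted p of 0.01, 4623 without replicate 1 of both groups, and 1394 to 3523 with 1 library left out. Members called higher and lower numbered 3 and 6, but 0 and 1 at 0.01, 6 and 11 without replicate 1 of both groups, 5 and 6 without an expression filter, 4 and 4 with total counts only, 3 and 9 with DESeq2's Wald test, and 0 to 4 and 3 to 8 with 1 library left out. Beside the 0 at 0.01, 7 members were higher at an unadjusted p under 0.05 and 3 by DESeq2's test at 0.05. The related lists gave 12 higher and 15 lower, 20 and 23 without replicate 1 of both groups, 13 and 19 with DESeq2's test, and 5 to 13 and 6 to 16 with 1 library left out. The members' median log2 fold change of -0.06 ranged from -0.20 to -0.017 with 1 library left out, and turned to 0.022 with total counts only and to 0.016 without replicate 1 of both groups. Signs of small changes turned with total counts only (ALDOC 0.10, PGAM1 0.040, PCK2 0.022, PFKFB3 0.022), where the median of all genes went from 0.00 to 0.09. Signs also turned without replicate 1 of both groups (GPI 0.055, ALDOC 0.80, PCK2 0.12, PFKFB4 0.016), and for ALDOC without a filter (0.032) and with limma-voom (0.16). With 1 library left out, log2 fold changes crossed 0 for HK1 (-0.10 to 0.26), ALDOC (-0.39 to 0.69), PGAM1 (-0.19 to 0.088), PCK2 (-0.17 to 0.041), PFKFB3 (-0.17 to 0.084) and PFKFB4 (-0.36 to 0.058). Causes were not tested. PFKP, TPI1 and ENO2 passed in all 18 alternatives at 0.05. Of the 1 share tested in each of 10 isoenzyme families, 2 to 3 did not overlap.

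With the replicate number as a block, 2033 genes were called, 4 members were higher and 4 lower, and ALDOC turned to 0.21. ALDOA, ENO1, PFKFB2 and PDHA1 lost their call, and PCK1, SLC2A2 and SLC2A3 gained one as higher. Over all genes tested, same-numbered libraries did not deviate together (correlations of -0.06, 0.01, -0.03 and 0.23 for replicates 1 to 4). Only parental replicate 4 correlated best with its own number. Unlike-numbered pairs reached higher values, such as 0.45 for parental replicate 1 with restored-labelled replicate 2. Single members could differ from this: SLC16A3, PCK1 and SLC2A3 fell in CPM from replicate 1 to 4 in both groups, whereas others, such as HK2, did not. Whether the number marks a pairing or an order of handling was not tested further.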
